A study of Mus musculus with 217 samples.

Results

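Complement components and regulators were followed across brain, lung and heart endothelial cells (ECs) of RiboTagEC mice, as 9 genes out of the 52550 gene identifiers counted. The genes were chosen by name, though with earlier results of these data known. They were the central component C3, the classical component C4b, the C1 proteases C1ra and C1s1, and the alternative pathway proteases Cfb and Cfd. The soluble inhibitor Serping1 and the membrane inhibitors Cd55 and Cd59a completed the list. All mice were adult C57BL/6J of the genotype Cdh5CreERT2/+; Rpl22HA/+, in which tamoxifen (5 mg by gavage, 4 times, at 4 to 6 weeks of age) lets a Cre enzyme driven by the Cdh5 promoter switch on an HA-tagged ribosomal protein, so that an HA antibody recovers ribosome-bound RNA of these cells out of homogenized tissue. Libraries came from control mice (labelled 0 hr, baseline here), which by the study's methods received PBS, and from mice at 6, 24, 48, 72 and 168 hr after intraperitoneal lipopolysaccharide (LPS), a bacterial endotoxin, at 10 mg per kg. Of 98 libraries, 80 had at least 3% of their reads on genes and were used. In the order of these times, they were 5, 5, 4, 6, 4 and 4 libraries in brain and in heart, and 4, 4, 2, 6, 4 and 4 in lung. The labels do not say which libraries come from separate mice, so p-values measure the spread between libraries. Because tag-bound RNA was pulled from whole tissue, fewer cells of a type and less RNA per cell cannot be told apart.

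Complement is a cascade of plasma proteins that marks microbes and damaged cells. The classical pathway starts when the C1 complex, whose proteases are C1r and C1s, cleaves C4 and C2. The alternative pathway uses factor D to cleave factor B on C3b, and both pathways converge on C3, whose cleavage feeds the membrane attack complex. Plasma complement is made largely by the liver, and many other cells make components locally in inflammation. ECs face plasma and are protected by inhibitors: C1 inhibitor, the product of Serping1, blocks C1r and C1s, decay accelerating factor (Cd55) dissociates C3 convertases, and Cd59 blocks the last step of pore assembly.

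Total counts ran from 7226796 to 32891759 per library in brain, from 8136031 to 33050750 in heart and from 284457 to 43417945 in lung. The share of reads on genes ran from 53.4% to 70.0% in brain, from 43.7% to 68.9% in heart and from 3.40% to 61.0% in lung. The 12 endothelial markers summed to 2695 to 5344 CPM (counts scaled to the TMM-adjusted library size) in brain, 12230 to 13960 in heart and 14220 to 22960 in lung at 0 hr, and no endothelial marker was at 0 throughout a group. Other cells were also represented. At 0 hr the 10 fibroblast markers summed to 532 to 1625 CPM in brain, the 6 alveolar epithelial markers to 2156 to 9968 CPM in lung, and the 6 cardiomyocyte markers to 2727 to 5035 CPM in heart. Sequencing batches are not labelled, and the file names follow 4 patterns, called library series here. The kept libraries hold 27 of series 1, 33 of series 2 and 20 of series 4, and series 4 has no 0 hr library.

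At 6 hr 1 library in each tissue stood apart, and these were the 3 libraries of series 1 at that time. Their file names tie them to 1 animal, so they are not independent of each other. Heart replicate 5 had a sum of the 10 neutrophil markers of 0.9205 CPM, against 40.7 to 62.8 CPM in the other 4 heart libraries at 6 hr and 0.9205 to 1.55 CPM at 0 hr. Its C1ra level, 10.85 CPM, lay inside the 0 hr range. Brain replicate 6 had 1.53 CPM of C3, against 19.2 to 34.7 CPM in the other 4. Lung replicate 4 had 284457 counts, the fewest, and none of the 9 genes had a count in it. There, 3 counts stand for 84.3 CPM, so its neutrophil sum of 28.1 CPM was too low to read. That floor was above the 0 hr lung level of each of the 9 genes but C3, so they were not detectable at this depth. These libraries were kept, since their labels place them at 6 hr, and the calls in C3, the C1 proteases, Cfb and Serping1 at 6 hr are also given without them. Values at 6 hr of the other complement genes are given with them only.

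In the mouse genome (GRCm38, GENCODE annotation), C3 lies on chr17:57203970-57228136, C4b on chr17:34728380-34743882 and Cfb on chr17:34856374-34862518, all on the minus strand. C1ra (chr6:124512405-124523443, plus strand) and C1s1 (chr6:124530345-124542359, minus strand) are neighbours. Serping1 lies on chr2:84765387-84775444 (minus), Cd59a on chr2:104095801-104115354 (plus), Cd55 on chr1:130439027-130462744 (minus) and Cfd on chr10:79890853-79892655 (plus). Of the 2825 exon bases of Cfb, 2246 are shared on the same strand with Gm20547, a gene model with 0 counts in every library. Reads on shared bases are not assigned to either gene, so the Cfb level is an undercount. Reads that fit both C4b and C4a, C1ra and C1rb, C1s1 and C1s2, Cd55 and Cd55b, or Cd59a and Cd59b may be missing from both members of a pair. Exons of C1s1 (576 bases) and Cd55 (102 bases) overlap an antisense gene, and whether reads were counted by strand is not given in the sources used here.

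RefSeq promoter windows (GRCm38.p6, 250 bases before to 50 after a start site) were at hand for 6 of the 9 genes. The 4 motifs searched on both strands were GAS (TTCNNNGAA, bound by STAT factors), ISRE (TTTCNNTTTC, bound by interferon regulatory factors), the core TTGCNNAA of C/EBP sites, and the NF-kappaB consensus. Over all 32851 windows they were found in 8.3%, 3.44%, 10.8% and 8.46%. C3, C1ra and C1s1 are shown because they rose together after LPS in brain and heart. The bases before the start sites of C3 (chr17:57228137-57228386, minus strand) and C1s1 (chr6:124542360-124542609, minus strand), and the stretch of C1ra that holds its 2 matches (chr6:124512637-124512661, plus strand), read as follows, with matches in capitals.
C3: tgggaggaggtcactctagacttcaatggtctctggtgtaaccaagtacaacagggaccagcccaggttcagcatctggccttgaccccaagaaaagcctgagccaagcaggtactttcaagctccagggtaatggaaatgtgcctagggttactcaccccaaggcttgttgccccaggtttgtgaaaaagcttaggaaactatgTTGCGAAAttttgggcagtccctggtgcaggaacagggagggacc
C1s1: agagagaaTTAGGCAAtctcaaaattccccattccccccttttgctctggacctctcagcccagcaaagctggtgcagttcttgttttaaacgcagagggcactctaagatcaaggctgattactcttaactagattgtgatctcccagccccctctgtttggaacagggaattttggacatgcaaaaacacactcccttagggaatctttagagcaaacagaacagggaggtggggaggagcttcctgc
C1ra: TTATGCAAatgcttcaTTCCCTGAA
The C3 match is a C/EBP core starting 45 bases before the start site. That of C1s1 is a C/EBP core starting 242 bases before it. In C1ra a C/EBP core starts at base 17 after the start site and a GAS motif at base 33. The windows of Cfd and Cd55 and the second start site of C1s1 held none of the 4 motifs, and that of Cd59a held an ISRE. A match is a description of letters and not a binding site.

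At baseline several of the 9 genes differed in level between tissues. C3, Cfd and the C1 proteases were highest in lung, Serping1 was highest in brain, and C4b was lowest in heart. Each pair of tissues was compared over 0 hr libraries, and 8 of the 9 genes could be tested, since Cfb was too low. In brain against lung 3 of 8 genes were higher and 4 lower, where 37.9% of all 17730 genes tested were higher and 26.4% lower. In brain against heart 2 were higher and 2 lower, with 32% and 22.8% of all genes. In lung against heart 5 were higher and 2 lower, with 29.9% and 31.2% of all genes. Both counts for brain against heart, and the count higher in brain against lung, were near the shares of all genes. The plot of baseline levels shows each library.

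**Figure D1:**
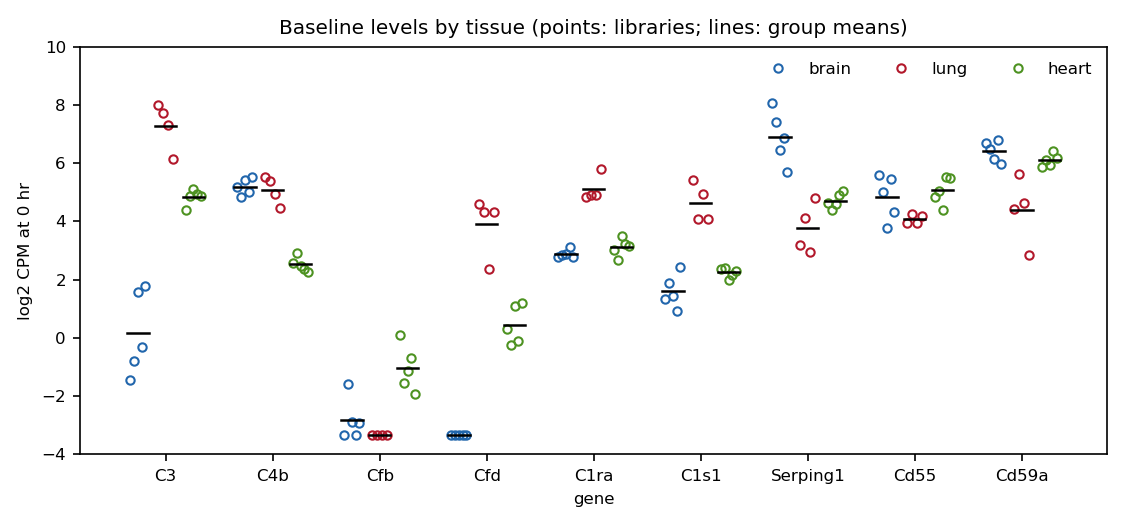
Levels of the 9 genes at 0 hr as log2 CPM (prior count 2), with 5 brain, 4 lung and 5 heart libraries as points and group means as lines. C3 falls into 3 separate ranges in the order lung, heart, brain, while the points of Cfb in lung and of Cfd in brain all lie at the bottom, where no read was counted.

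C3, the component on which all pathways converge, had 0.272, 0.474, 2.85, 0.697 and 3.31 CPM in the 5 brain libraries. The 4 lung libraries had 254.8, 211.8, 159.4 and 70.8 CPM and the 5 heart libraries 20.7, 29.4, 34.2, 31.0 and 28.9 CPM. The 3 ranges did not overlap, and on the log2 scale brain lay 7.07 ± 0.59 (SE) below lung (edgeR adjusted p = 1.39e-07) and 4.39 ± 0.52 below heart (adjusted p = 3.85e-06), while lung lay 2.68 ± 0.48 above heart (adjusted p = 0.000259). Cfd, the serine protease that cleaves factor B and is best known from adipocytes, had no count in any of the 5 brain libraries, which together allow at most 0.0273 CPM at 3 counts. It had 24.2, 19.9, 5.08 and 19.8 CPM in lung and 0.736 to 2.20 CPM in heart. Lung was 3.58 ± 0.57 higher than heart on the log2 scale (edgeR adjusted p = 0.000269), and brain was lower than both (adjusted p = 1.46e-06 and 3.58e-05).

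C1ra and C1s1, which encode the proteases of the C1 complex, were both higher in lung than in brain and heart, and brain and heart did not pass the edgeR test against each other, but with a block by animal, read from file names, C1s1 was lower in brain than in heart (log2 -0.71 ± 0.28, edgeR adjusted p = 0.0433). C1ra had 28.3, 30.1, 29.6 and 55.4 CPM in lung, against 6.69 to 8.65 CPM in brain and 6.21 to 11.3 CPM in heart. The log2 difference of lung from brain was 2.37 ± 0.26 for C1ra and 3.12 ± 0.37 for C1s1, and from heart 2.04 ± 0.26 and 2.49 ± 0.36 (edgeR adjusted p from 2.32e-06 to 3.75e-05). C4b, which encodes the C4 that C1s cleaves, had 28.6 to 45.6 CPM in brain, 22.0 to 46.3 CPM in lung and 4.74 to 7.52 CPM in heart. Brain and lung overlapped, and heart was 2.64 ± 0.25 below brain and 2.60 ± 0.26 below lung (adjusted p = 3.68e-07 and 1.71e-06). Cfb, which encodes factor B, had 0 to 0.237 CPM in brain, no count in the 4 lung libraries and 0.167 to 0.961 CPM in heart.

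Serping1 ran the other way from the proteases its product blocks. It had 270.2, 170.1, 86.9, 116.6 and 51.7 CPM in brain, against 7.57 to 27.7 CPM in lung and 21.0 to 32.8 CPM in heart. Brain was higher by 3.08 ± 0.45 than lung and by 2.15 ± 0.40 than heart (edgeR adjusted p = 2.90e-05 and 0.000295), and the brain range did not overlap the others. Lung was not called against heart, but was lower by 1.21 ± 0.48 with the block by animal (edgeR adjusted p = 0.0398) and by 0.91 ± 0.34 without the low-count filter (0.0254). In the same 5 brain libraries the fibroblast markers summed to 1625, 1244, 653, 1155 and 532 CPM, and Serping1 put the 5 libraries in the same order as these sums. Replicates 1 and 2, the first of these libraries, are of series 1 and the others of series 2. The parts of these cells and of library series in the brain level were not tested. The membrane inhibitors differed less. Cd59a had 62.9 to 112.4 CPM in brain, 7.03 to 49.7 CPM in lung and 58.8 to 86.7 CPM in heart, and lung was lower by 1.78 ± 0.39 than brain and by 1.48 ± 0.38 than heart (adjusted p = 0.000992 and 0.00392). Cd55 had 13.7 to 48.5 CPM in brain, 15.3 to 19.0 CPM in lung and 21.2 to 46.4 CPM in heart, so that lung lay inside the brain range. Cd55 was 1.06 ± 0.36 lower in lung than in heart (adjusted p = 0.0177) and 0.83 ± 0.35 lower than in brain (adjusted p = 0.0493). The Cd55 difference between brain and lung was lost in 7 of 9 fits that left out 1 library (adjusted p up to 0.157) and in 6 of 8 alternatives (adjusted p from 0.0215 to 0.183).

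Per kilobase of exon, which allows levels to be compared between genes, Serping1 led in brain with 59.8 ± 36.6 CPM per kilobase (SD, n = 5), followed within its spread by Cd59a with 48.6 ± 11.5. C3 led in lung with 33.9 ± 15.4 (n = 4), followed by Cfd with 18.7 ± 9.05, and these 2 were within their spread. Cd59a led in heart with 38.4 ± 6.11 (n = 5), ahead of Serping1 with 11.4 ± 2.07. At baseline the inhibitors thus stood first in brain and heart per length, and components stood first in lung. The inhibitor Cd59a in lung, with 14.2 ± 9.80, was within the spread of both C3 and Cfd.

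After LPS, transcripts of C3, both C1 proteases and factor B rose in the brain libraries, and C4b more weakly, whereas the membrane inhibitors did not pass the edgeR test. At 6 hr 3 of 8 genes tested rose (C3, Cfb, C1ra), at 24 hr 6 (these with C1s1, C4b and Serping1), at 48 hr 5 (without Serping1) and at 72 hr 3 (C3, C1ra, C1s1). None fell in this fit, while without the low-count filter edgeR called Cd55 lower at 24 and 48 hr. Over all 19234 genes tested in brain, 4.21% rose and 2.23% fell at 6 hr, 6.52% and 4.66% at 24 hr, 8.11% and 6.12% at 48 hr, and 2.98% and 0.546% at 72 hr. The median log2 fold change of the 8 genes was 2.16 at 24 hr, beside -0.025 over all genes tested. At 168 hr no member was called by edgeR, DESeq2 or limma-voom, 0 had an unadjusted p under 0.05, and 0% of all genes were called.

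**Figure D2:**
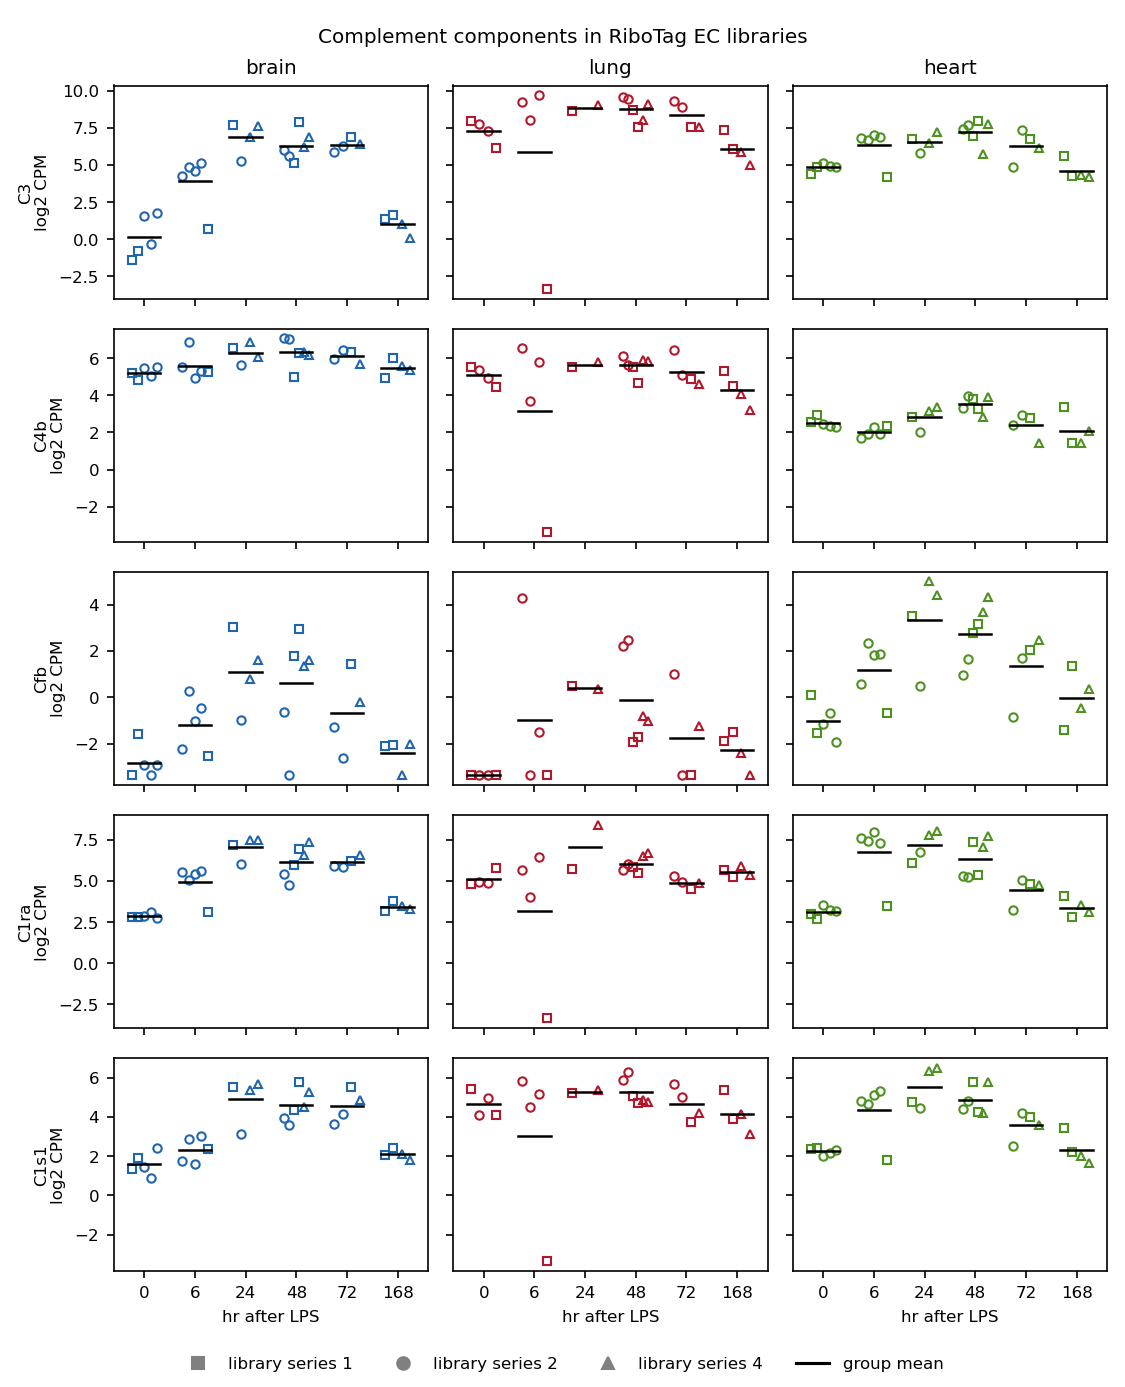
Log2 CPM (prior count 2) of C3, C4b, Cfb, C1ra and C1s1 against hr after LPS in brain, lung and heart, with 1 point a library, its shape giving the library series, and group means as lines. C3 in brain rises from 0.272 to 3.31 CPM at 0 hr to 39.1 CPM and above at 24 hr and is back at 0.944 to 3.01 CPM at 168 hr, and the squares at 6 hr are the libraries that stood apart.

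On the log2 scale, C3 had the widest range of group means among the 9 genes in brain. From 0.272 to 3.31 CPM at 0 hr it reached 19.2, 29.0, 24.0, 34.7 and 1.53 CPM at 6 hr, and 205.6, 39.1, 116.4 and 198.5 CPM at 24 hr. The 6 libraries at 48 hr had 34.5, 69.7 and 240.2 CPM (lowest, median, highest), and those at 72 hr had 58.25, 79.0, 120.1 and 85.9 CPM. All libraries from 24 to 72 hr lay above every 0 hr library, and the 4 libraries at 168 hr (2.405, 3.01, 1.88 and 0.944 CPM) lay inside the 0 hr range. The log2 fold change was 3.77 ± 0.71 at 6 hr (edgeR adjusted p = 0.00137) and 6.40 ± 0.84 at 24 hr (7.66e-05). It was 5.88 ± 0.78 and 5.70 ± 0.78 at 48 and 72 hr (edgeR adjusted p = 6.965e-05 and 0.000108), and 0.18 ± 0.87 at 168 hr (0.977). Without the library that stood apart, the 6 hr value was 4.15 ± 0.59. Within library series 1 the difference of mean log2 CPM from 0 hr was 8.80 at 24 hr (1 library against 2), 7.63 at 48 hr and 8.03 at 72 hr, and within series 2 it was 3.71, 4.29, 4.81 and 5.09 from 6 to 72 hr. The direction was thus the same in both series, with a larger difference in series 1, whose 2 libraries at 0 hr were the lowest. At 168 hr the difference within series 1 was 2.60 (2 libraries against 2).

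Of the C1 proteases, C1ra passed the test from 6 hr and C1s1 from 24 hr. C1ra had 6.80, 7.03, 7.28, 8.65 and 6.69 CPM at 0 hr and 46.7, 33.4, 43.0, 49.1 and 8.51 CPM at 6 hr. At 24 hr it had 148.4, 66.2, 181 and 182.7 CPM, all above the 6 hr values. Its 6 hr value without replicate 6 was 2.80 ± 0.28 (log2, edgeR adjusted p = 1.44e-07). Its log2 fold changes from 6 to 72 hr were 2.42 ± 0.39, 3.87 ± 0.44, 3.22 ± 0.41 and 3.11 ± 0.41 (edgeR adjusted p from 2.44e-05 to 0.000422). C1s1 had 1.78 to 5.24 CPM at 0 hr and 2.96 to 8.06 CPM at 6 hr, where the groups overlapped and the test was not passed (log2 0.94 ± 0.40, adjusted p = 0.187, and 1.16 ± 0.41, adjusted p = 0.0558, without replicate 6). At 24 hr it had 45.7, 8.62, 41.9 and 51.0 CPM, all above 0 hr, and log2 fold changes of 2.98 ± 0.47, 2.72 ± 0.42 and 2.76 ± 0.43 at 24, 48 and 72 hr (adjusted p from 0.000257 to 0.000374). At 168 hr all 4 C1ra libraries, 8.95, 13.9, 10.8 and 9.84 CPM, still lay above the highest 0 hr library, but the difference did not pass the test (log2 0.11 ± 0.44, adjusted p = 0.972).

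C4b was already well represented in brain and had smaller fold changes. It had 35.9, 28.6, 43.3, 32.6 and 45.6 CPM at 0 hr and 94.3, 49.5, 117.5 and 67.1 CPM at 24 hr, without overlap. The log2 fold change was 1.34 ± 0.39 at 24 hr and 1.34 ± 0.34 at 48 hr (edgeR adjusted p = 0.0262 and 0.0113), and 0.975 ± 0.35 at 72 hr (adjusted p = 0.148). The 24 hr call was lost without 0 hr replicate 2 or 4 or 24 hr replicate 1 (adjusted p up to 0.0786), with limma-voom and with a replicate block (adjusted p = 0.209 with the block), and the 48 hr call was lost with the block (0.0547). The 6 astrocyte markers were high in several of the libraries with the most C4b, with sums of 4595 and 4745 CPM at 48 hr in replicates 1 and 2 (133.3 and 129.7 CPM of C4b) and 6668 CPM at 6 hr in replicate 2 (114.3 CPM), against 879 to 4201 CPM at 0 hr. At 24 hr the sums were 1183 to 3295 CPM, inside the 0 hr range, with C4b above it. The part of astrocytes in the C4b level was not tested.

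Of the alternative pathway proteases, Cfb rose and Cfd stayed near no counts. Cfb had 0, 0.237, 0.0352, 0 and 0.0345 CPM at 0 hr and 8.17, 0.409, 1.605 and 2.95 CPM at 24 hr, so all 24 hr libraries were above 0 hr at a low level. Its log2 fold change was 4.53 ± 1.13 at 6 hr, 4.99 ± 1.12 at 24 hr and 4.81 ± 1.08 at 48 hr (edgeR adjusted p = 0.0135, 0.00592 and 0.00554), and 3.52 ± 1.13 at 72 hr (0.0900). At 72 hr it was called by DESeq2 (adjusted p = 0.0194) and by edgeR without the low-count filter (0.000507), with all libraries (0.0463) or without the 6 hr library that stood apart (0.0263). The fold rests on 0 hr libraries of which 2 of 5 had no count. The 6 hr call was lost without 6 hr replicate 2 (adjusted p = 0.0561), and with limma-voom or without the library series term (adjusted p up to 0.328). Without replicate 6 it was 5.38 ± 0.97 (adjusted p = 0.000277). Cfd had counts in only 4 of 28 brain libraries, at most 0.232 CPM, and was not tested there.

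Among the inhibitors in brain, Serping1 at 24 hr was the one call in the edgeR fit with the low-count filter. It had 693.9, 167.5, 553.1 and 589.1 CPM at 24 hr against 51.7 to 270.2 CPM at 0 hr, and 1 of the 4 lay inside the 0 hr range. The log2 fold change was 1.19 ± 0.37 (edgeR adjusted p = 0.0413), and the call was lost in 7 of 9 fits that left out 1 library (log2 fold change 1.04 to 1.37, adjusted p up to 0.1345) and with a replicate block (adjusted p = 0.0706). Cd55 had 10.75, 10.9, 13.9 and 27.6 CPM at 24 hr, where 2 of 4 lay below the 0 hr range of 13.7 to 48.5 CPM, with log2 -1.08 ± 0.45 at 24 hr and -0.92 ± 0.36 at 48 hr (edgeR adjusted p = 0.113 and 0.0867). Without the low-count filter edgeR called Cd55 lower at both times (-1.05 ± 0.31 and -0.93 ± 0.25, adjusted p = 0.0149 and 0.00601). Cd59a had 62.9 to 112.4 CPM at 0 hr and 72.1 to 120.1 CPM at 24 hr, with log2 fold changes between -0.52 and -0.13 over the 5 times (adjusted p of at least 0.1745).

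The fibroblast marker sum moved with Serping1 in brain, and in part with C3. At 24 hr this sum was 3947, 1341, 4199 and 4519 CPM in the libraries with 693.9, 167.5, 553.1 and 589.1 CPM of Serping1, and the library with the lowest sum also had the least C3. At 48 hr replicates 1 and 2 had sums of 651 and 487 CPM, 1 inside and 1 below the 0 hr range, and there Serping1 had 91.95 and 66.5 CPM, inside its 0 hr range. In these same 2 libraries C3 was 64.2 and 49.0 CPM, C1ra 42.4 and 26.45 CPM, C1s1 15.3 and 12.0 CPM, and C4b 133.3 and 129.7 CPM, all above their 0 hr ranges. Cfb in them was 0.543 and 0 CPM. The 6 hr libraries with raised C3 had fibroblast sums of 380 to 937 CPM, within or below the 0 hr range of 532 to 1625 CPM. Library series went along with both Serping1 and the fibroblast sum, since 24 hr replicate 2 and 48 hr replicates 1 and 2 are of series 2. Mean log2 CPM of Serping1 in series 2 and in series 1 was 6.335 and 7.745 at 0 hr, and 7.389 and 9.439 at 24 hr. The parts of these cells and of library series in the results for Serping1, C3 and the C1 proteases were not tested. The 10 macrophage and microglia markers summed to 26.7 to 113.4 CPM at 0 hr and 37.0 to 128.5 CPM at 24 hr, and reached 324.4 and 282.1 CPM in replicates 1 and 2 at 48 hr.

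**Figure D3:**
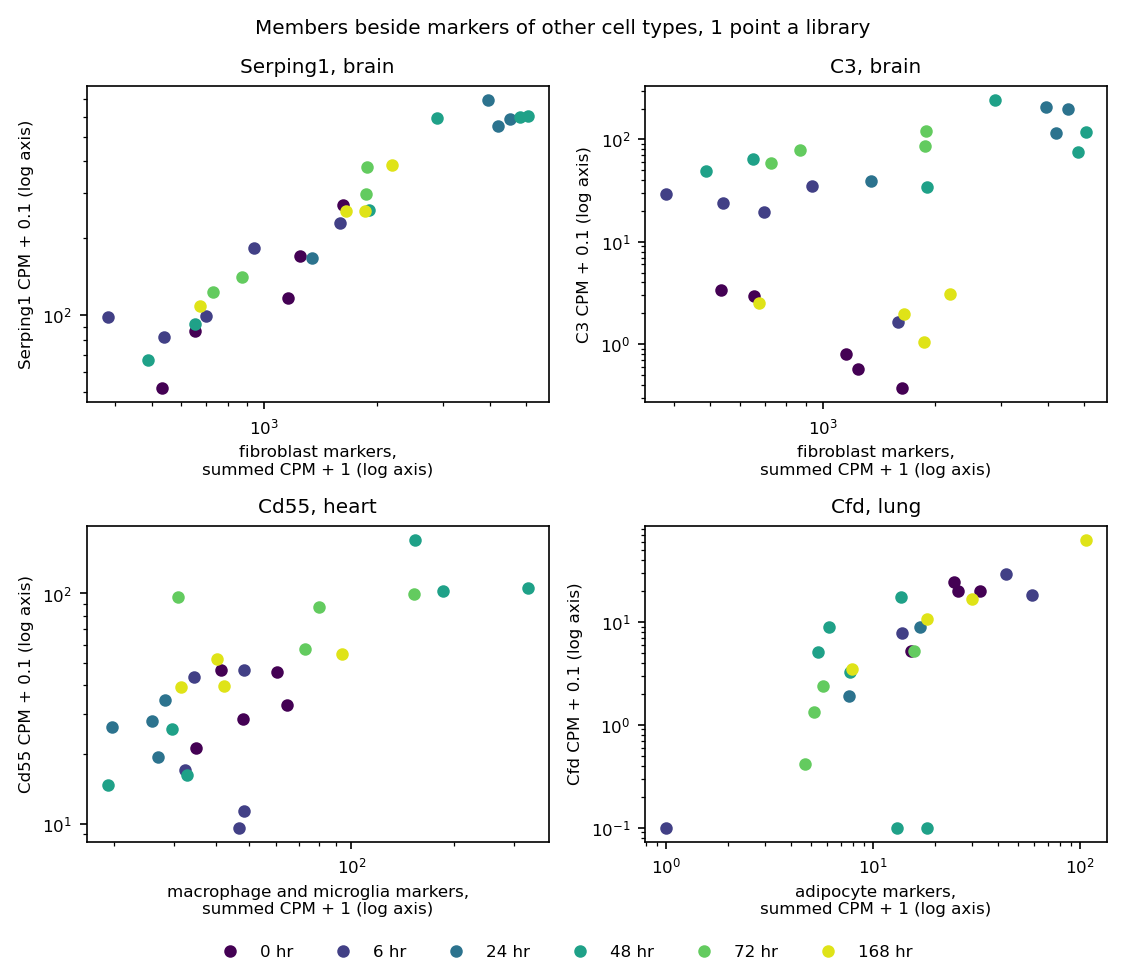
CPM of 4 members (log axis, 0.1 added) against the summed CPM of markers of another cell type (log axis, 1 added), with 1 point a library coloured by hr after LPS, for Serping1 and C3 with fibroblast markers in brain, Cd55 with macrophage and microglia markers in heart, and Cfd with adipocyte markers in lung. Serping1 climbs with the fibroblast sum over the whole brain panel, and C3 lies high at 24 to 72 hr and low at 0 and 168 hr. Fibroblast sums at 72 hr (726.7 to 1885 CPM) overlap those at 0 hr (532.4 to 1625 CPM), while those at 24 and 48 hr reach 4519 and 5051 CPM.

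In the heart libraries the same 5 genes, C3, Cfb, C1ra, C1s1 and Serping1, rose at 6, 24 and 48 hr, and none fell. C4b, Cfd, Cd55 and Cd59a were not called at any time in this edgeR fit, but for all of these except Cfd this depended on the fit. At 48 hr C4b was called by DESeq2 (adjusted p = 0.0171) and by edgeR without the low-count filter (0.0245) or without the 6 hr library that stood apart (0.0424). Cd59a was called there by DESeq2 (0.0481) and by edgeR without the filter (0.0284) or without the library series term (0.0466). Cd55 without the filter was called at 48 hr (edgeR adjusted p = 0.0150) and 72 hr (0.00600). At 6 hr 5 of 9 rose, where 22.4% of 16024 genes rose and 20.3% fell. At 24 hr 5 of 9 rose, with 9.07% and 7.11% of all genes, and at 48 hr 5 of 9, with 3.08% and 1.11%. At 72 hr none was called, where 0.275% of all genes rose and 0% fell, although 7 of 9 had an unadjusted p under 0.05, and DESeq2 called 1 and limma-voom 0. C3 was that 1 (log2 1.76 ± 0.48, edgeR adjusted p = 0.147, DESeq2 0.0334), and it was also called by edgeR without the 6 hr library that stood apart (0.0288). At 168 hr no member was called by edgeR, DESeq2 or limma-voom, 0 had an unadjusted p under 0.05, and 0% of all genes were called.

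C1ra had the largest fold change of the 9 genes in heart at 6 hr. It had 7.95, 6.21, 11.3, 9.34 and 8.88 CPM at 0 hr and 194.2, 171.5, 248.4, 160.1 and 10.85 CPM at 6 hr. At 24 hr it had 67.4, 109.7, 218.4 and 260.3 CPM, and at 72 hr 9.28, 33.2, 28.35 and 26.7 CPM. The level was thus already near its peak at 6 hr in 4 of 5 libraries and was near baseline in 1 of 4 at 72 hr. The log2 fold change was 4.12 ± 0.63 at 6 hr (edgeR adjusted p = 4.73e-05; 4.55 ± 0.47 without replicate 5), 3.70 ± 0.65 at 24 hr (0.001535) and 3.24 ± 0.61 at 48 hr (0.00296). C1s1 followed with 25.4 to 39.8 CPM in the same 4 libraries at 6 hr, against 3.89 to 5.15 CPM at 0 hr, and 27.2, 21.8, 79.95 and 90.8 CPM at 24 hr. Its log2 fold changes were 2.52 ± 0.55, 3.33 ± 0.62 and 2.69 ± 0.54 at 6, 24 and 48 hr (adjusted p = 0.00137, 0.00202 and 0.00442), and 2.95 ± 0.44 at 6 hr without replicate 5.

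C3 in heart rose from a higher baseline than in brain. It had 20.7 to 34.2 CPM at 0 hr and 112.5, 102.8, 130.3, 117.8 and 18.3 CPM at 6 hr, and 106.9, 55.5, 87.5 and 149.2 CPM at 24 hr. The 6 libraries at 48 hr had 52.8, 186.8 and 248.4 CPM (lowest, median, highest), all above 0 hr. The log2 fold change was 1.63 ± 0.48 at 6 hr, 2.03 ± 0.54 at 24 hr and 2.68 ± 0.48 at 48 hr (edgeR adjusted p = 0.00917, 0.01595 and 0.00189), and 2.01 ± 0.42 at 6 hr without replicate 5. The 24 hr call was lost with a replicate block (0.0552). Within series 2, which holds 3 libraries at 0 hr, the difference of mean log2 CPM was 1.88 at 6 hr, 0.82 at 24 hr and 2.57 at 48 hr, and within series 1 it was -0.43 at 6 hr (the library that stood apart), 2.11 at 24 hr and 2.82 at 48 hr.

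Cfb in heart went from 0.961, 0.245, 0.354, 0.526 and 0.167 CPM at 0 hr to 1.40, 5.04, 3.48, 3.55 and 0.526 CPM at 6 hr. At 24 hr it had 11.1, 1.29, 31.8 and 21.2 CPM, and all 24 and 48 hr libraries lay above 0 hr. Its log2 fold change was 3.05 ± 0.73, 3.88 ± 0.81 and 3.34 ± 0.72 at 6, 24 and 48 hr (edgeR adjusted p = 0.00258, 0.00393 and 0.00840), and the 48 hr call was lost with a replicate block (0.0656). Without replicate 5 the 6 hr value was 3.53 ± 0.63. C4b had 3.14, 3.62, 4.84, 3.74 and 4.93 CPM at 6 hr, against 4.74 to 7.52 CPM at 0 hr, and 6.89 to 15.5 CPM at 48 hr, where 5 of 6 lay above 0 hr but the test was not passed (log2 1.10 ± 0.34, adjusted p = 0.0640). Cfd had 0.736 to 2.20 CPM at 0 hr and 0 to 7.34 CPM at 48 hr.

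Serping1, which encodes the inhibitor of C1r and C1s, rose with the proteases in heart. It had 24.5, 21.0, 24.4, 30.3 and 32.8 CPM at 0 hr and 51.0, 69.5, 90.2, 148.4 and 40.9 CPM at 6 hr. At 24 hr it had 114.7, 95.8, 367.4 and 308.8 CPM, and every library from 6 to 72 hr lay above every 0 hr library. The log2 fold change was 1.59 ± 0.40, 2.71 ± 0.48 and 2.10 ± 0.42 at 6, 24 and 48 hr (edgeR adjusted p = 0.00381, 0.00152 and 0.00428), and 1.84 ± 0.40 at 6 hr without replicate 5. The fibroblast markers in heart summed to 308 to 667 CPM at 0 hr and 219 to 593 CPM at 6 hr. At 24 hr the sum was 566 to 1080 CPM, and at 48 hr it was 848 to 1621 CPM. The part of these cells was not tested. Neutrophil markers in heart summed to 0.9205 to 1.55 CPM at 0 hr and 8.64 to 33.5 CPM at 24 hr. The endothelial marker sum in heart was lower at 6 hr, 5383 to 7645 CPM in the 4 libraries in which the 5 genes were high and 13850 CPM in replicate 5, and its part in the 6 hr results was not tested.

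**Figure D4:**
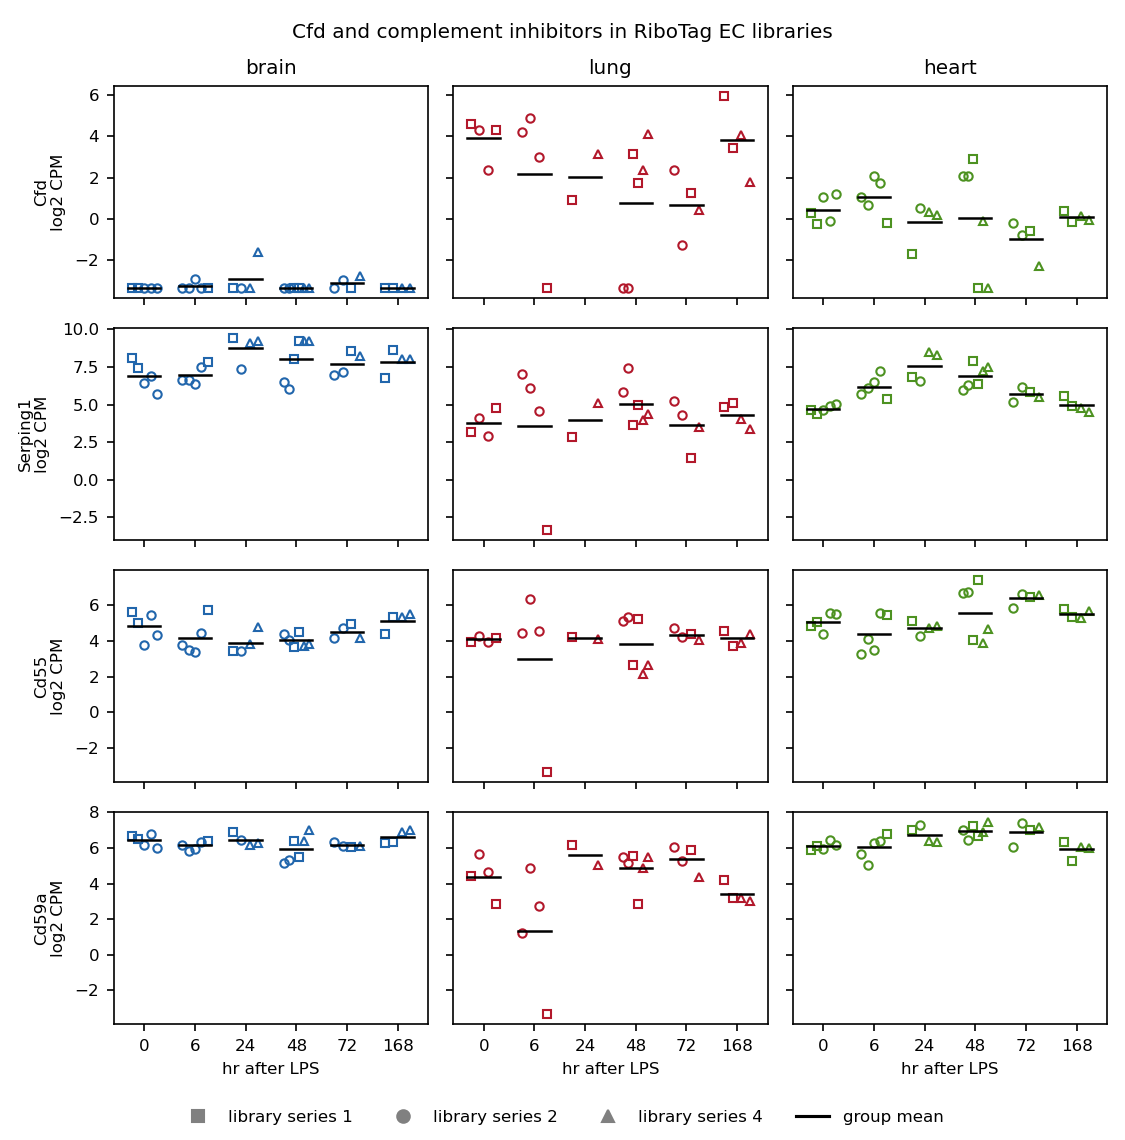
Log2 CPM (prior count 2) of Cfd, Serping1, Cd55 and Cd59a against hr after LPS in the 3 tissues, with 1 point a library, its shape giving the library series, and group means as lines. Serping1 in heart lies above its 0 hr range from 6 to 72 hr, Cd55 in heart at 48 hr splits into 3 libraries at 102.2 CPM and above and 3 at 25.7 CPM and below, and Cfd in brain lies at or next to no counts.

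Cd55 and Cd59a, the membrane inhibitors, were not called in heart in the edgeR fit with the low-count filter, and Cd55 at 48 hr split into separate levels. Replicates 1, 2 and 4 had 102.2, 105.3 and 170.8 CPM and replicates 3, 6 and 7 had 16.2, 14.6 and 25.7 CPM, against 21.2 to 46.4 CPM at 0 hr (log2 1.09 ± 0.50, edgeR adjusted p = 0.223, and 1.52 with a replicate block, 0.0369). The same replicate numbers were apart in lung, with 34.0, 39.9 and 37.8 CPM against 6.13, 4.40 and 6.18 CPM, and in brain, with 21.1, 16.5 and 22.7 CPM against 12.4, 13.0 and 13.9 CPM. Macrophage and microglia markers summed to 185.5, 329.1 and 152.7 CPM in the first 3 and 31.8, 18.1 and 28.6 CPM in the others in heart, and C1ra in heart, at 39.6, 37.7 and 40.5 against 168.1, 133.8 and 212 CPM, split the other way. These 2 sets were told apart by their values and were not tested against each other. Replicates 1 and 2 are of library series 2 and replicates 6 and 7 of series 4, while 3 and 4, of series 1, fell on opposite sides. File names tie each number to 1 animal, so the split in the other tissues is not an independent repeat. The part of library series was not tested. At 72 hr Cd55 had 57.1, 99.85, 87.0 and 96.2 CPM, all above 0 hr (log2 1.45 ± 0.56, edgeR adjusted p = 0.547), and the 6 hr libraries had 9.53, 17.1, 11.2, 46.6 and 43.4 CPM. Cd59a had 58.8 to 86.7 CPM at 0 hr and 86.3 to 177.3 CPM at 48 hr (log2 0.83 ± 0.29, adjusted p = 0.107).

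In the lung libraries Cfb at 6 hr was the one call by edgeR. Lung had the fewest libraries, the widest depth and the highest baseline of C3, C1ra and C1s1. At 6 hr 1 of 9 genes was called, where 4.83% of 17058 genes changed in either direction. At 24, 48, 72 and 168 hr edgeR called none of the 9, where 0.375%, 0.598%, 0.193% and 0.0117% of all genes were called. At these times 3, 2, 2 and 1 of the 9 had an unadjusted p under 0.05, limma-voom called none, and DESeq2 called 1 at 48 hr (Cfb, adjusted p = 0.0128) and none at the others.

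Cfb in lung had no count in the 4 libraries at 0 hr, which together allow 0.0472 CPM at 3 counts. At 6 hr it had 19.3, 0, 0.262 and 0 CPM, at 24 hr 1.29 and 1.19 CPM, and at 48 hr 0.166, 0.430 and 5.51 CPM (lowest, median, highest), with counts in 6 of 6 libraries. Over the pooled libraries of each time it was at least 27.4-fold higher at 6 hr (43 counts), 25.6-fold at 24 hr (22 counts) and 20.7-fold at 48 hr (54 counts) than this floor. Without the library with the most counts it was at least 5.40-fold higher at 6 hr (8 counts), 27.3-fold at 24 hr (5 counts) and 11.7-fold at 48 hr (28 counts). The 6 hr value rests on replicate 1, without which the edgeR adjusted p was 0.233 against 0.0299, and it was also lost without 0 hr replicate 2 or 3 and with a replicate block (0.0657), and held without replicate 4, which stood apart (0.0420). Replicate 1 had 6.93% of its reads on genes and the highest macrophage marker sum at 6 hr, 3822 CPM against 293 to 851 CPM at 0 hr, and the part of these cells was not tested. Leaving out the lung libraries under 10% of reads on genes (6 hr replicates 1, 2 and 4 and 48 hr replicate 1) left only replicate 3 at 6 hr. Cfb was not called in that fit.

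C3 in lung had 70.8 to 254.8 CPM at 0 hr and 607.8, 259.3, 832 and 0 CPM at 6 hr, so that 3 of 4 lay above the 0 hr range. At 24 hr it had 390.2 and 521.1 CPM, and at 48 hr 192.1, 487.3 and 774.7 CPM (lowest, median, highest), with 5 of 6 above 0 hr. At 168 hr it had 162, 66.6, 58.05 and 31.3 CPM, and 3 of 4 lay below 0 hr. None of these differences passed the test, with log2 0.60 ± 0.74 at 6 hr, 2.01 ± 0.82 at 24 hr and 1.53 ± 0.66 at 48 hr (edgeR adjusted p = 0.661, 0.625 and 0.405). Without the library that stood apart the 6 hr value was 1.19 ± 0.64 (0.281). Alveolar epithelial markers ran along with part of this spread. Their sum was 9434 to 9968 CPM in the 3 libraries at 0 hr with 159.4 CPM of C3 and above, and 2156 CPM in the library with 70.8 CPM. The sum was 1603 and 1950 CPM at 24 hr, below the 0 hr range, where C3 was above its own, and the part of these cells was not tested.

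C1ra in lung had 52.0 and 344.5 CPM in the 2 libraries at 24 hr, against 28.3 to 55.4 CPM at 0 hr, so 1 of 2 was raised. At 48 hr it had 44.1, 61.3 and 105.5 CPM (log2 0.59 ± 0.53, edgeR adjusted p = 0.792). C1s1 had 17.1 to 42.4 CPM at 0 hr and 26.1, 31.1 and 77.2 CPM at 48 hr, and C4b 22.0 to 46.3 and 25.45 to 70.0 CPM. Serping1 had 131.8, 68.3, 23.4 and 0 CPM at 6 hr against 7.57 to 27.7 CPM at 0 hr, and 168.2 CPM in 48 hr replicate 2, whose macrophage marker sum was 4049 CPM. Cd55 had 79.7 CPM in 6 hr replicate 2 and 4.40 to 39.9 CPM at 48 hr, and Cd59a had 2.21, 29.1, 6.57 and 0 CPM at 6 hr and 73.3 and 33.4 CPM at 24 hr. Of these values, those of Cd55 and Cd59a passed their 0 hr range in both directions. Over all times after LPS, so did those of C1ra, C1s1, C4b and Serping1. After 6 hr, C1ra was below its range in 1 library at 72 hr, and C4b in 2 at 168 hr. C1s1 was below it in 1 library at 72 hr and 2 at 168 hr, and Serping1 in 1 at 24 hr and 1 at 72 hr.

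Cfd in lung had lower values at several times without passing the test. It had 24.2, 19.9, 5.08 and 19.8 CPM at 0 hr and 1.80 and 8.81 CPM at 24 hr. At 72 hr it had 5.16, 0.316, 2.26 and 1.23 CPM, 3 of 4 below 0 hr (log2 -2.67 ± 1.08, edgeR adjusted p = 0.504). At 168 hr it had 62.7, 10.7, 16.8 and 3.405 CPM. The 7 adipocyte markers summed to 14.2 to 31.95 CPM at 0 hr, 3.68 to 14.7 CPM at 72 hr and 6.93 to 105.7 CPM at 168 hr, and the highest sum and the highest Cfd were in the same library. The part of adipocytes in the Cfd level was not tested.

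**Figure D5:**
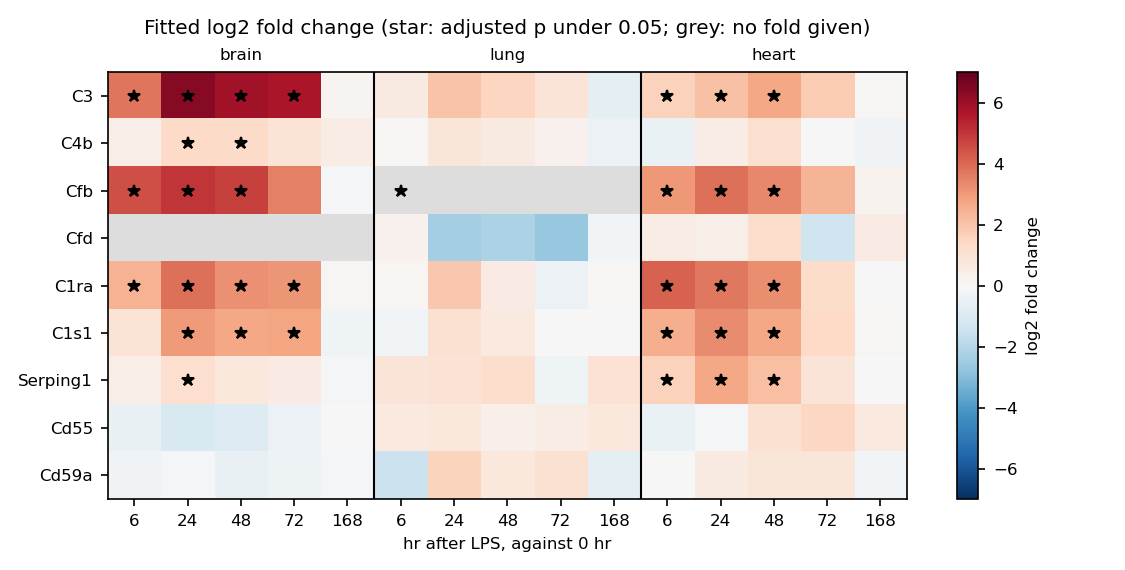
Log2 fold change of the 9 genes at each time after LPS against 0 hr, by tissue, with stars where the edgeR adjusted p was under 0.05 and grey where Cfd in brain was not tested or where all lung libraries at 0 hr were without Cfb. The brain columns reach 6.40 for C3 at 24 hr, the heart columns 4.12 for C1ra at 6 hr, and the only star in lung is Cfb at 6 hr.

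The tissues were then compared in their response, as the difference between 2 tissues of the log2 change from 0 hr. At 6 hr 1 of 9 genes differed between brain and lung, 0 between brain and heart, and 2 between lung and heart, where 13.3%, 0.636% and 18.1% of 22007 genes differed. At 24 hr 1 of 9 differed between brain and heart, with 0.327% of all genes. At 48 hr 3 of 9 differed between brain and lung, 1 between brain and heart and 1 between lung and heart, with 3.54%, 0.463% and 1.13% of all genes. For brain and heart at 6 hr, 4 of the 9 had an unadjusted p under 0.05, and DESeq2 and limma-voom called 0. The same libraries enter several of these comparisons, which are thus not independent of each other.

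C3 responded more in brain than in heart at 24 and 48 hr and than in lung at 48 hr. Its response was larger in brain than in heart by 4.85 ± 0.88 at 24 hr (edgeR adjusted p = 0.00139) and by 3.59 ± 0.78 at 48 hr (0.0112), and larger than in lung by 4.80 ± 0.82 at 48 hr (0.000245). At 24 hr the call held in 18 of 18 fits that left out 1 library. At 48 hr the call against heart was lost without brain 48 hr replicate 4 (0.0551) and with limma-voom (0.137). At 6 hr the difference from lung was 2.50 ± 0.86 (0.0401), lost in 9 of 18 such fits and with RLE scaling, limma-voom or no library series term. It was also not called with the lung libraries under 10% of reads on genes left out, which left only lung replicate 3 at 6 hr. At 6 hr the difference from heart was 2.21 ± 0.80 (0.217), and 2.30 ± 0.74 (0.0463) without the libraries that stood apart. The levels reached did not follow this order, since brain C3 at 24 hr, with 39.1 to 205.6 CPM, overlapped heart, with 55.5 to 149.2 CPM, and lay below the lung values of 390.2 and 521.1 CPM.

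C1ra responded less in lung than in heart at 6 and 48 hr and than in brain at 48 hr. At 6 hr its response in lung was 3.64 ± 0.72 below heart (edgeR adjusted p = 0.000336), and 3.74 ± 0.63 below it without the libraries that stood apart. The difference was not called without the lung libraries under 10% of reads on genes, which left only lung replicate 3 at 6 hr. At 48 hr it was 2.63 ± 0.64 below heart (0.0211) and 2.64 ± 0.64 below brain (0.00938), both lost with limma-voom (0.223 and 0.151). The call against heart at 48 hr was also lost without heart 48 hr replicate 3 or 7 or lung 0 hr replicate 3 (up to 0.0593). C1s1 at 48 hr responded 2.43 ± 0.69 more in brain than in lung (0.0306), lost in 6 of 21 fits that left out 1 library (up to 0.0705), with a replicate block (0.0714) and with limma-voom (0.125). The remaining call, Cfb in lung against heart at 6 hr (edgeR adjusted p = 0.0285), was lost with a replicate block (0.0505) and with a block by animal read from file names (0.272), and rests on lung 6 hr replicate 1 (0.531 without it) and on 0 hr libraries with no counts. With the animal block C1s1 in lung against heart at 6 hr was called (-2.31 ± 0.80, edgeR adjusted p = 0.0378), as it was without the low-count filter (0.0235) and without the libraries that stood apart (0.0355). For Serping1, Cd55 and Cd59a no difference in response passed the main edgeR test. In brain against lung at 6 hr Serping1 was called by DESeq2 (log2 -2.56, adjusted p = 0.0315) and by edgeR without the low-count filter (-2.18, 0.00357) or with RLE scaling (-2.64, 0.0431). Cd55 was called there by DESeq2 (-2.09, adjusted p = 0.0499) and by edgeR without the libraries that stood apart (-2.28 ± 0.78, 0.0386). In lung against heart at 6 hr Cd55 was called by DESeq2 (2.10, adjusted p = 0.0372) and by edgeR with a replicate block (2.01, 0.0311).

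The other genes of the pathway were read from a list of 48, of which 32 could be tested in brain, 31 in lung and 27 in heart. Their background is the share of all genes called, given above for each comparison. In brain 2, 7, 11 and 10 of 32 rose at 6, 24, 48 and 72 hr, while 0, 2, 3 and 0 fell. In heart 4, 2, 6 and 2 of 27 rose at these times and 5, 2, 0 and 0 fell, and both counts at 6 hr were below the shares of all genes, 22.4% and 20.3%. In lung 2 rose and 1 fell at 6 hr, and 1, 2 and 1 of 31 rose at 24, 48 and 72 hr. At 168 hr edgeR, the only tool used for this list, called none in any tissue, with 3 in brain, 0 in lung and 4 in heart at an unadjusted p under 0.05. By role, receptors made up 4 of the 11 that rose in brain at 48 hr (5 tested), and initiators another 4 (13 tested). Among these initiators were C1qa (log2 2.06 ± 0.37), C1qb (1.59 ± 0.31) and C1qc (1.45 ± 0.36; edgeR adjusted p from 0.00106 to 0.0100), chains of the C1 recognition subunit that macrophages and microglia make, and named here after their values were seen.

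Receptors of complement peptides and fragments rose in each tissue, C5ar1 in brain and heart and Itgam in lung and heart. C5ar1, the C5a receptor of myeloid cells, had 0.316 to 0.915 CPM in brain at 0 hr and 0.629 to 4.53 CPM at 24 hr (log2 2.45 ± 0.61, edgeR adjusted p = 0.0123), and log2 fold changes of 2.23 ± 0.57 in brain and 1.56 ± 0.56 in heart at 6 hr (0.0157 and 0.0275). Itgam, a chain of complement receptor 3 on neutrophils and macrophages whose exons are partly shared with Gm49368, had 2.47 to 9.13 CPM in lung at 0 hr and 71.8 and 122.6 CPM at 24 hr. Its log2 fold change was 2.97 ± 0.82 at 6 hr and 4.58 ± 0.90 at 24 hr in lung (0.0302 and 0.0104) and 2.82 ± 0.69 and 3.67 ± 0.74 in heart (0.00290 and 0.00340). Neutrophil markers in brain summed to 6.43 to 56.9 CPM at 0 hr, 7.59 to 407.1 CPM at 6 hr and 40.9 to 126.8 CPM at 24 hr. Neutrophil markers in lung summed to 42.5 to 219.3 CPM at 0 hr and 1527 and 2822 CPM at 24 hr, and the part of these cells was not tested.

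Initiators and terminal components moved both ways. C2, which C1s cleaves along with C4 and whose exons are partly shared with Gm20547, had 0 to 0.625 CPM in heart at 0 hr and 1.06 to 5.56 CPM at 24 hr, with log2 2.65 ± 0.66 at 6 hr and 2.58 ± 0.74 at 24 hr (edgeR adjusted p = 0.00358 and 0.0238). In brain the terminal component C6 had 0 to 0.310 CPM at 0 hr and 1.06 to 3.31 CPM at 24 hr (log2 3.24 ± 0.88, 0.0195). C1rb, the close copy of C1ra, had no count in the 5 brain libraries at 0 hr and 0.170 to 1.19 CPM at 24 hr (adjusted p = 0.0139). In heart the collectin Colec11 fell by 2.09 ± 0.79 at 6 hr and by 3.09 ± 1.01 at 24 hr on the log2 scale (0.0363 and 0.0399), C7 fell by 5.00 ± 0.79 at 6 hr (6.52e-05), and C8g fell by 2.99 ± 0.98 at 24 hr (0.0400).

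Thbd, the endothelial thrombomodulin, which also limits complement, fell in all 3 tissues. It had 571 to 749.8 CPM in heart at 0 hr and 39.0 to 868.9 CPM at 6 hr, the highest being the library that stood apart. The log2 change was -1.68 ± 0.53 in heart at 6 hr, -1.56 ± 0.34 in brain at 24 hr and -5.16 ± 1.00 in lung at 6 hr (edgeR adjusted p = 0.0142, 0.00520 and 0.00373). The endothelial marker sum was lower with it in 4 of 5 heart libraries at 6 hr (5383 to 7645 CPM against 12230 to 13960 CPM at 0 hr) and in 3 of 4 in lung at 6 hr (2846, 6941 and 3344 CPM against 14220 to 22960 CPM). In brain at 24 hr it was 2884 to 5104 CPM, inside the 0 hr range. The part of the endothelial share in the Thbd result was not tested. Cd59b, the copy of Cd59a, fell in brain at 24 hr from 0.862 to 1.85 CPM to 0.0860 to 0.681 CPM (log2 -1.76 ± 0.55, 0.0405). Cr1l, the rodent membrane regulator Crry, rose in brain at 6 hr by 0.60 ± 0.17 (0.0359). Csmd1 in lung at 6 hr (log2 5.88 ± 1.19, 0.00485) had 28.1 to 1371 CPM against 0.150 to 5.85 CPM at 0 hr, in a group where 3 of 4 libraries had under 10% of reads on genes. The lowest of these 6 hr values was below the level of 3 counts in lung replicate 4.

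At baseline, of 33 other complement genes tested, 10 were higher and 10 lower in brain than in lung, 12 higher and 6 lower in brain than in heart, and 17 higher and 8 lower in lung than in heart. The shares of all genes were 37.9% and 26.4%, 32% and 22.8%, and 29.9% and 31.2% in the same order. The first 2 comparisons were thus near this background. Vtn, which encodes the fluid-phase regulator vitronectin, had 877.4 to 1849 CPM in brain, 2.69 to 12.6 CPM in lung and 1.84 to 4.24 CPM in heart (log2 7.70 ± 0.54 and 8.92 ± 0.51, edgeR adjusted p = 2.60e-08 and 1.82e-09). Hc, which encodes C5, had 32.1 to 131.1 CPM in lung and 0 to 0.395 CPM in brain, and C6 4.86 to 43.9 and 0 to 0.310 CPM (log2 -7.76 ± 1.08 and -7.42 ± 0.84 in brain against lung, 1.90e-05 and 2.60e-06).

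The patterns of group means over the 18 tissue and time groups were also compared with those of 8975 or 8976 other genes, all with mean levels not below 3 log2 CPM, as a description without a test, since the points share libraries and tissues. The genes most like C1s1 were Lrg1 (Pearson r = 0.943), Ino80c (0.911) and C1ra (0.889). Those most like C1ra were Lrg1 (0.918), Ch25h (0.912) and Ino80c (0.901), and those most like C3 were Upp1 (0.903), Sdcbp2 (0.872) and Gimap5 (0.872). For Cfb they were Etf1 (0.922), Rrbp1 (0.91) and Zc3h12a (0.899), for C4b Prkcb (0.95), Dtx4 (0.948) and Slc9a3r1 (0.946), and for Cfd Casz1 (0.95), Shroom3 (0.923) and Soga1 (0.917). For the inhibitors they were Fau (0.96), Ube2e2 (0.949) and Gsto1 (0.939) with Serping1, Arhgap18 (0.896), Kctd12b (0.889) and Dchs1 (0.875) with Cd55, and Snw1 (0.961), Erp44 (0.96) and Ap5s1 (0.949) with Cd59a. Among the 9 genes themselves, C1s1 with C1ra (0.889) and with C3 (0.867) were the most alike. The lung mean at 6 hr includes replicate 4, in which none of the 9 genes had a count. It lowers that mean for all of them except Cfb together, and the patterns were not compared without it.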

How the data were processed

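Gene counts per sequencing run were deposited by the authors, who aligned reads with STAR (version 2.4.2 per the labels' processing notes) and counted them with HTSeq (0.6.1), with no normalization. The genome build is mm10, and the annotation release is not given in the sources used here. The 217 runs were summed into 98 libraries, named by tissue, time and replicate, and 18 with under 3% of reads on genes, all of library series 3, were left out. Summary rows held 58.7% of all reads and entered neither library sizes nor tests. Depth ran from 284457 to 43417945 counts a library, and floors of 3 counts cover counting error only.

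edgeR (4.0.16, R 4.3.3) was run with filterByExpr, TMM scaling and the quasi-likelihood F test within each tissue, across tissues at 0 hr, and jointly for differences in response, with library series as a covariate. Benjamini-Hochberg adjustment covered all genes tested, at 0.05. Values after ± are SE for fold changes, taken from the log2 fold change and F. Levels are TMM-scaled CPM, and log2 CPM used a prior count of 2. Alternatives were DESeq2 (1.42.0), limma-voom (limma 3.58.1), RLE scaling, no low-count filter, no series term, a replicate block, all libraries, a block by animal read from file names, a prior count of 0.5, and each library left out. The scripts were tested on simulated data. The fits without the 3 series 1 libraries at 6 hr, and without lung libraries under 10% of reads on genes, were chosen after seeing the data, as was the block by animal in the joint fit. Between tissues after LPS, file names tied same-numbered libraries to 1 animal in all pairs from 24 to 168 hr and, at 6 hr, in brain and heart. Deviations from group means of such pairs correlated with r from 0.175 to 0.653 at 48 hr and from -0.052 to 0.456 at 72 hr. These pairs also share a library series, which was not removed from the deviations. The correlations thus cannot tell a shared animal from a shared series, and the pairing rests on file names. By these names, lung replicates 1, 2 and 3 at 6 hr share an animal with brain and heart replicates 2, 3 and 4. Lung replicate 3 at 24 hr shares one with brain and heart replicate 4. Pairs by number did not include these.

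The 9 genes, the 48 other complement genes and the marker lists were chosen with earlier results of these data known. Of the other genes, those named were up to 3 per tissue and direction at 6 and 24 hr and per baseline comparison, by absolute log2 fold change past the threshold, of which some are described and 1 is not reported here. Loci came from GENCODE on GRCm38. No 2 libraries held identical values.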

Additional observations from a re-analysis of the deposited data

Results flagged for a closer look

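Of 149 groups of 4 or more libraries checked, 19 held 1 library far from the rest on the log2 CPM scale, where chance alone marks about 1 in 20 groups. Several were the 6 hr libraries of series 1, which file names tie to 1 animal. In brain replicate 6, C3 was at 0.705 log2 CPM (1.53 CPM against 19.2 to 34.7) and C1ra at 3.105 (8.51 against 33.4 to 49.1). In heart replicate 5, C3 was at 4.205 (18.3 against 102.8 to 130.3 CPM), C1ra at 3.452 (10.85 against 160.1 to 248.4) and C1s1 at 1.787 (3.35 against 25.4 to 39.8). In lung replicate 4, C3 and C1s1 had no count and were at -3.355.

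At 24 hr, brain replicate 2 was lowest for C1s1 (3.123, 8.615 CPM against 41.9 to 51.0) and Serping1 (7.389, 167.5 against 553.1 to 693.9 CPM), and it also had the lowest fibroblast marker sum of its group. At 168 hr, replicate 1 was highest for C3 in heart (5.598, 48.3 against 18.2 to 19.7 CPM) and for Cd59a in lung (4.184, 18.1 against 8.165 to 9.15 CPM), and lowest for Cd55 in brain (4.37, 20.6 against 40.2 to 44.5 CPM). In lung at 0 hr, replicate 3 was lowest for Cfd (2.371, 5.08 against 19.75 to 24.2 CPM) and replicate 4 highest for C1ra (5.795, 55.4 against 28.3 to 30.1 CPM), and at 48 hr replicate 4 was lowest for Cd59a (2.87, 7.21 against 28.9 to 46.2 CPM).

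The remaining 4 were at or near no counts. Cfb in brain was highest in replicate 2 at 0 hr (-1.579, 0.237 CPM) and lowest in replicate 4 at 168 hr (-3.355, no count), and Cfd in brain was highest in replicate 3 at 6 hr (-2.902, 0.0361 CPM) and in replicate 5 at 24 hr (-1.601, 0.232 CPM), where the others had none.

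The response differed between tissues in 9 cases by the edgeR test of the difference itself. The log2 difference for C3 was 2.502 in brain against lung at 6 hr, 4.85 in brain against heart at 24 hr, 4.796 in brain against lung at 48 hr and 3.595 in brain against heart at 48 hr. For C1ra it was -3.643 in lung against heart at 6 hr, 2.644 in brain against lung at 48 hr and -2.625 in lung against heart at 48 hr. For C1s1 it was 2.432 in brain against lung at 48 hr. The Cfb difference in lung against heart at 6 hr, fitted at 7.413, rests on lung libraries at 0 hr with no count and is no measure of size.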

How the results depend on the processing

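Counts of the 9 genes called that changed by over 1.5 times, or to or from 0, were as follows. No called direction reversed under any alternative run. Without the low-count filter the count was 5 in brain and 5 in heart at 72 hr, 8 in heart at 48 hr, 1 in lung at 24 hr and 1 at 48 hr, and for differences in response 4 (brain and lung, 6 hr), 2 (brain and heart, 6 hr) and 2 (lung and heart, 48 hr). DESeq2 called 1 in lung at 48 hr, 1 in heart at 72 hr and 4 for brain and lung at 6 hr. limma-voom called 0 in lung at 6 hr, 0 for brain and lung and 1 for lung and heart at 6 hr, and 1, 0 and 0 for brain and lung, brain and heart, and lung and heart at 48 hr. Without the series term brain and lung at 6 hr had 0. Without lung libraries under 10% of reads on genes, lung kept only replicate 3 at 6 hr. The 6 hr calls in lung, for brain and lung, and for lung and heart were lost in that fit. Without the 3 series 1 libraries at 6 hr it was 1 in heart at 72 hr, 3 for brain and lung and 1 for brain and heart at 6 hr. Smaller changes, such as 4, 7 and 6 calls in brain at 6, 24 and 48 hr without the low-count filter and 7 in heart at 48 hr and 4 in brain at 72 hr with DESeq2, are not listed in full. With RLE scaling the 1 call for brain and lung at 6 hr was Serping1 in place of C3. The causes were not tested.

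Leaving out 1 library at a time gave 0 to 2 calls in lung at 6 hr, 0 to 1 in heart at 72 hr, 0 to 4 for brain and lung, 0 to 1 for brain and heart and 1 to 3 for lung and heart at 6 hr, and 0 to 1 for brain and heart and 0 to 2 for lung and heart at 48 hr. These joint fits kept the dispersion trend of the full fit.

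Between times of 1 tissue, and between tissues at 0 hr, same-numbered libraries were compared in the same way. In no such comparison with 3 or more pairs did every pair correlate above 0.1, with r from -0.666 to 0.775. File names nevertheless tied the 5 same-numbered brain and heart libraries at 0 hr to 1 animal each, with r from -0.055 to 0.139. In lung at 0 hr the numbers are shifted. By file names, lung replicates 1, 2 and 3 share an animal with brain and heart replicates 2, 3 and 4. Pairs of lung by number at 0 hr thus joined different animals and could not show these ties. The main baseline fit did not use the ties. With a replicate block, calls were 0 in lung at 6 hr, 4 in brain at 24 hr and at 48 hr, and 4 in heart at 24 hr. With a block by animal from file names, Cd55 in lung against heart at 0 hr was not called (edgeR adjusted p = 0.0630), while C1s1 in brain against heart (0.0433) and Serping1 in lung against heart (0.0398) were. With such a block in the joint fit, chosen after seeing the data, Cfb in lung against heart at 6 hr was not called and C1s1 was, and no other call between tissues changed. With a prior count of 0.5, 11 of 162 group levels moved by over 1 SD. Depth limits lung most, where 3 counts reach 84.3 CPM in 1 library.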
